A study of Mus musculus with 32 samples.

Results

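The C/EBP, PU.1 and ETS factors examined here are 10 genes for transcription factors that shape macrophage identity and inflammatory gene expression: Cebpa, Cebpb, Cebpd, Spi1 (which encodes PU.1), Runx1, Etv3, Etv6, Ets2, Elf1 and Elk3. They were chosen by name, and each was represented by its RefSeq transcript with the highest mean count, 1 row for each of 25067 genes in the deposited table. All 10 were among the 11207 genes that passed the filter on low values, a mean RPKM (reads per kilobase of transcript, scaled for depth) above 1 in at least 1 group. RNA-seq was performed on bone marrow-derived macrophages (BMDMs) of male C57Bl6/J mice aged 6 to 12 weeks, differentiated for 7 days in medium conditioned by L929 cells, a source of the macrophage growth factor M-CSF. BMDM-Nur77-KO came from mice in which the Nr4a1 gene, which encodes the nuclear receptor Nur77, was deleted in the whole body. The deletion was made by breeding a loxP-flanked Nr4a1 allele to Cre under the CMV promoter, after which Cre was bred out. The labels of these libraries give the genotype as cre. BMDM-WT came from wild-type littermates. Cells of each genotype were left without lipopolysaccharide (LPS, the bacterial ligand of Toll-like receptor 4; 0 h) or received 100 ng/ml LPS for 1, 5 or 18 h, with 4 libraries in each of the 8 groups and 32 in all. Cells were seeded as replicate wells and the number of animals is not given in the sources used here, so p-values measure the spread between these libraries, which may be technical.

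C/EBP proteins are basic leucine zipper factors that bind DNA as dimers. C/EBPα is known for its role in the commitment of myeloid cells, whereas C/EBPβ and C/EBPδ are known as factors of the acute inflammatory response. PU.1 is an ETS factor that marks macrophage enhancers together with C/EBP and RUNX1 proteins, and the other ETS proteins share the same winged DNA-binding domain but act as activators (Ets2, Elf1) or repressors (Etv3, Etv6), with Elk3 known as a ternary complex factor that works with serum response factor.

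Totals over the 25067 genes were 8742362 to 15780926 tags per library, with a median of 11847140. As a check of the genotype, Nr4a1 in BMDM-Nur77-KO was at 26.7% of its BMDM-WT level at 0 h (adjusted p = 1.6e-08) and at 43.6% at 1 h (adjusted p = 1.9e-06), in a table that does not separate the deleted exons. Macrophage markers were high in all libraries, with a summed level of 10830 to 18450 CPM (tag counts scaled to a common library size) over 7 of 7 genes. This sum was lower in BMDM-Nur77-KO without overlap at 5 h (12750 to 14860 CPM, against 15010 to 16330 CPM in BMDM-WT) and at 18 h (10830 to 12310 CPM, against 13780 to 14380 CPM). The summed level of 7 neutrophil markers was 15.6 to 45.7 CPM, with Ly6g at 0 counts in 26 libraries, and at 1 h it was 36.9 to 45.0 CPM in BMDM-Nur77-KO and 24.9 to 33.7 CPM in BMDM-WT. Among the lists for other cell types, the highest sums were 21.2 CPM for T cells, mostly Cd4, and 22.0 CPM for dendritic cells, mostly Xcr1. The dendritic cell sum at 18 h was 7.58 to 9.92 CPM in BMDM-Nur77-KO and 3.71 to 4.26 CPM in BMDM-WT. The part of these markers in the genotype differences at 1, 5 and 18 h was not tested. In bulk samples, fewer cells of a type and less RNA per cell cannot be told apart. A pair of libraries stood apart from the others of their group: over all genes tested, BMDM-Nur77-KO at 5 h replicate 1 had a root mean square log2 distance of 0.767 and BMDM-Nur77-KO at 18 h replicate 4 of 0.545, compared with 0.24 to 0.479 for the other libraries. For the members, calls that rest on them are given with and without them. Values of other single genes include these libraries unless stated.

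In BMDM-WT, LPS changed most of these factors, and their time courses fell into distinct patterns, as shown in the plot of member levels by library. Each rise or fall is given here for an adjusted p under 0.05 in edgeR's quasi-likelihood test over all genes tested. At 1 h of LPS, 5 members rose (Cebpb, Runx1, Etv3, Etv6 and Ets2) and Cebpa alone fell. Of all genes, 10.1% rose and 10.2% fell at 1 h, which became 1365 genes up and 909 down with DESeq2's size factors in place of 1133 and 1141. With DESeq2's own test, Cebpd and Elk3 were called higher at 1 h as well (adjusted p = 0.0496 and 0.0112). At 5 h, 6 members rose (Cebpb, Cebpd, Spi1, Etv3, Etv6 and Elf1) and 3 fell (Cebpa, Ets2 and Elk3), against 30.1% and 40.0% of all genes. At 18 h, 5 rose (Cebpb, Cebpd, Spi1, Etv3 and Etv6) and 3 fell (Cebpa, Runx1 and Ets2), against 32.4% and 33.9%. Elf1 did not pass the test there (adjusted p = 0.0563) but was called higher with DESeq2 (adjusted p = 0.0243) and in other settings. From 1 to 5 h, 5 members rose and 4 fell, against 29.0% and 36.0% of all genes. From 5 to 18 h, Cebpa and Elk3 rose and 7 members fell, against 36.0% and 33.3%. The median member moved by 1.13 on the log2 scale at 5 h, whereas the median of all genes moved by -0.14. In BMDM-Nur77-KO, 4 members rose (Cebpb, Etv3, Etv6 and Ets2) and 0 fell at 1 h, against 6.91% and 5.4% of all genes, and Cebpa was at 78.3% of its 0 h level (adjusted p = 0.0803), the 1 member below 0 h with an unadjusted p under 0.05 in edgeR. DESeq2 likewise called 0 lower there, whereas Cebpa was called lower with only the libraries compared (adjusted p = 0.00238) and without the 2 libraries that stood apart (adjusted p = 0.00152). At 5 h, 6 members rose and 4 fell, against 32.2% and 39.2%, and with only the libraries compared 2 fell, where Runx1 and Elk3 lost their calls (adjusted p = 0.0633 and 0.065). At 18 h, 6 members again rose and 4 fell, against 33.8% and 35.6%. Elk3, 1 of those that fell, lost its call there with DESeq2 (adjusted p = 0.0656). In edgeR it was also lost with DESeq2's size factors, another filter, no filter or only the libraries compared (adjusted p = 0.0551 to 0.106).

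**Figure D1:**
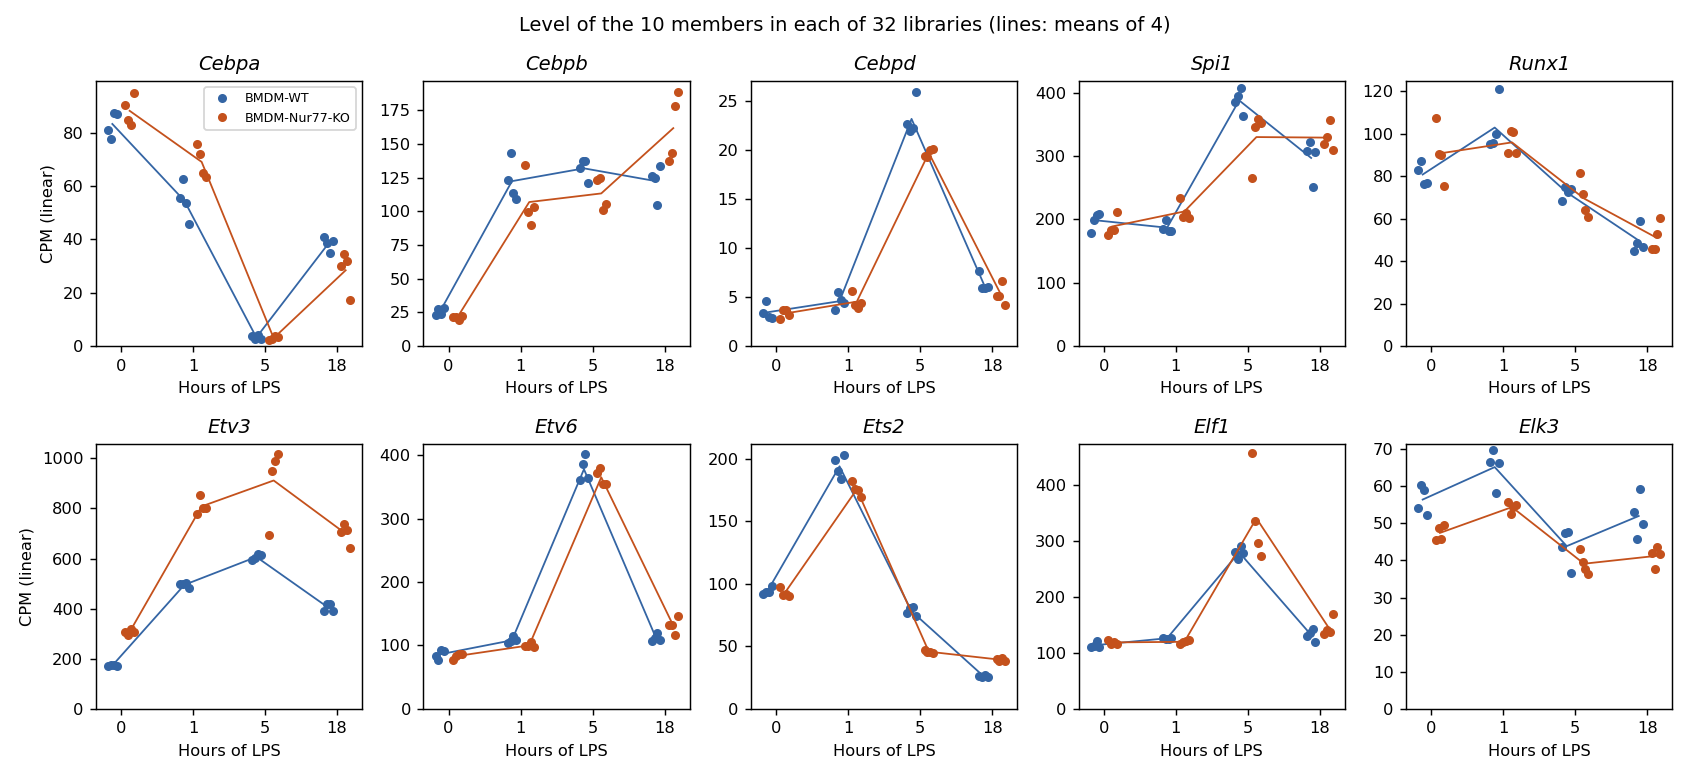
Level of each of the 10 members in CPM (linear axis from 0) against hours of LPS, with 1 point per library (blue BMDM-WT, orange BMDM-Nur77-KO) and lines through the means of 4. Etv3 is higher in BMDM-Nur77-KO at each time, Ets2 changes sides between 5 and 18 h, and Cebpa is close to 3 CPM in both genotypes at 5 h.

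**Figure D2:**
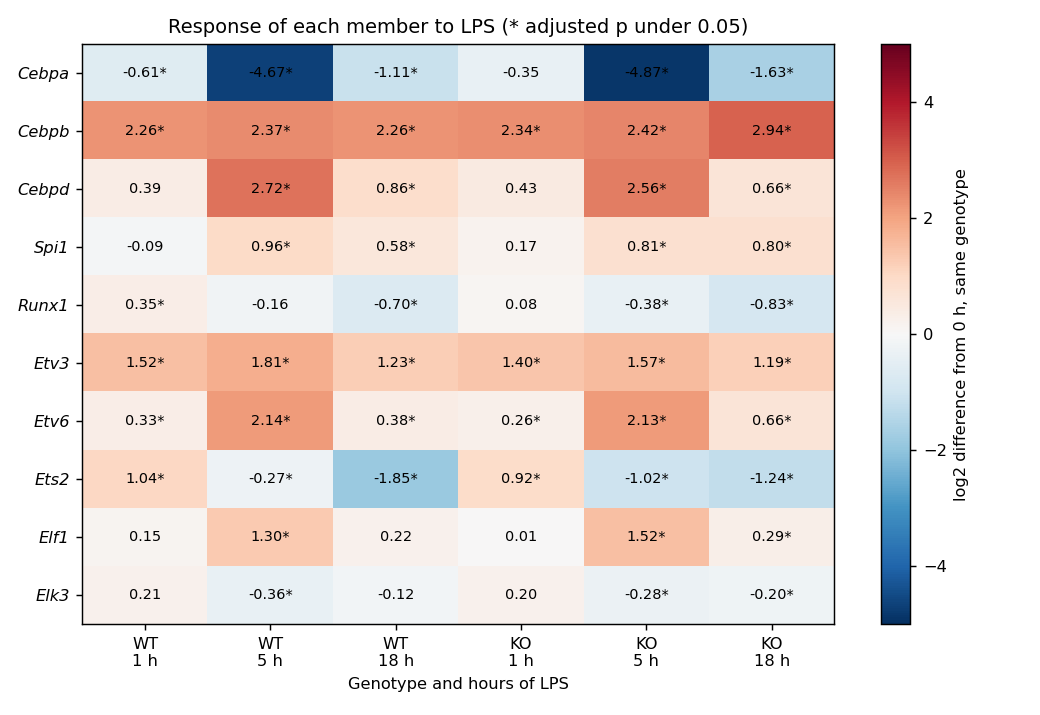
Log2 difference of each member from 0 h of the same genotype (WT for BMDM-WT, KO for BMDM-Nur77-KO) at 1, 5 and 18 h of LPS, in color and printed in each cell, with an asterisk where the adjusted p was under 0.05. The largest fall is that of Cebpa at 5 h, -4.67 in BMDM-WT and -4.87 in BMDM-Nur77-KO.

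The genotypes differed at fewer members. At 0 h, Etv3 was higher and Elk3 lower in BMDM-Nur77-KO, against 6.32% and 6.34% of all genes. At 1 h, 1 member was higher (Etv3) and 0 were lower with edgeR, against 3.48% and 3.05%, where 2 were lower at an unadjusted p under 0.05 and DESeq2 called the same 2, Elk3 and Ets2. At 5 h, 2 were higher (Etv3 and Elf1) and 2 lower (Ets2 and Spi1), against 13.7% and 10.7%. At 18 h, 4 were higher (Etv3, Ets2, Cebpb and Etv6) and 2 lower (Cebpa and Elk3), against 11.7% and 9.93%. The median member differed by -0.03, -0.09, -0.14 and 0.15 on the log2 scale at 0, 1, 5 and 18 h, and the median of all genes by -0.03, 0.00, 0.02 and -0.01. Whether the LPS response itself differed between the genotypes was tested as an interaction. With edgeR this was called for 0 members at 1 h, against 0.0714% of all genes, where 1 member (Spi1) had an unadjusted p under 0.05 and DESeq2 called 0. It was called for Ets2 at 5 h, against 3.11%, and for Ets2 and Cebpb at 18 h, against 9.43%. Without the BMDM-Nur77-KO library that stood apart at 5 h, 2 members remained called at that time (Etv3 and Ets2), and without the one at 18 h, 3 remained called (Etv3, Ets2 and Elk3).

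**Figure D3:**
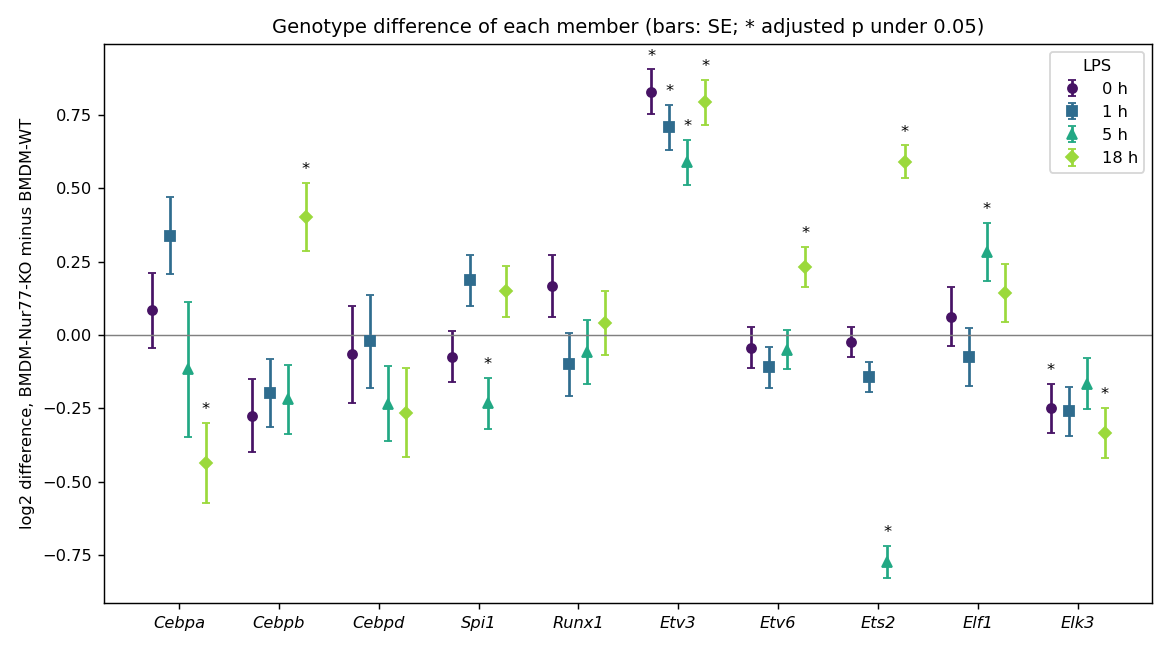
Log2 difference between the genotypes (BMDM-Nur77-KO minus BMDM-WT) for each member at 0, 1, 5 and 18 h of LPS, with the standard error as bars and an asterisk where the adjusted p was under 0.05. Etv3 lies between 0.59 and 0.83 at all times, and Ets2 passes from -0.77 at 5 h to 0.59 at 18 h.

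Among the C/EBP genes, Cebpa was lower and Cebpb higher than at 0 h at each later time in BMDM-WT. Cebpa encodes the C/EBP factor of the myeloid lineage and lies on chromosome 7 from 35119293 to 35121928 (GRCm38, the assembly of mm10). Cebpb lies on chromosome 2 from 167688915 to 167690432. The 250 bases before the start of each are shown since these genes moved apart within 1 h. The sequences are from RefSeq for GRCm38.p6, on the plus strand and from 5′ to 3′, with capitals for a TATA box (TATAAA) in Cebpa, at chr7:35119043-35119292, and for GC boxes (GGGCGG) in Cebpb, at chr2:167688665-167688914:
Cebpa: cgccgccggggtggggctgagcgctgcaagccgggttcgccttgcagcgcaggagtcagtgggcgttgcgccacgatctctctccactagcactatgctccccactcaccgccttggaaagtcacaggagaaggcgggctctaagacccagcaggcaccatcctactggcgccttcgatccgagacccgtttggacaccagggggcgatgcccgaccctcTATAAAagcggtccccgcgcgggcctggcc
Cebpb: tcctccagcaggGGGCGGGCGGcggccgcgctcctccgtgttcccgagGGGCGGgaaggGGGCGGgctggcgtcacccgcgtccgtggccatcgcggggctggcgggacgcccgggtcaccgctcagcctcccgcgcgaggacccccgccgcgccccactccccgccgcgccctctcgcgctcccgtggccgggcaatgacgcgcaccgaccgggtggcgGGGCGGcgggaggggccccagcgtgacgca
The TATA box of Cebpa begins 30 bases before the start. The window of Cebpb has 5 GC boxes on this strand, of which a pair overlap, and 81.6% G and C. A TATA box on either strand was present in 12.4% of 32851 mouse promoters and a GC box in 32.7%.

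Cebpa in BMDM-WT was at 81.2, 77.6, 87.5 and 87.0 CPM at 0 h and at 55.7, 62.8, 53.7 and 46.0 CPM at 1 h. At 5 h the libraries were at 3.63, 2.68, 3.98 and 2.71 CPM, and at 18 h at 40.8, 38.7, 34.9 and 39.5 CPM. These 4 groups did not overlap. The level at 5 h was 25.4-fold lower than at 0 h (log2 -4.67, SE 0.18, adjusted p = 1.58e-20), on 22.5 to 35.5 tags per library, and it then rose 11.8-fold to 18 h (adjusted p = 4.08e-17). In BMDM-Nur77-KO, Cebpa was at 90.4, 84.9, 82.9 and 94.8 CPM at 0 h, 75.9, 72.0, 64.9 and 63.4 CPM at 1 h and 2.17, 2.68, 3.82 and 3.33 CPM at 5 h. All 4 were above BMDM-WT at 1 h, where the difference of 0.34 did not pass the test (SE 0.13, adjusted p = 0.142) but was called with only the libraries compared (adjusted p = 0.0121) and without the 2 libraries that stood apart (adjusted p = 0.00516). At 18 h it was at 29.9, 34.5, 31.9 and 17.4 CPM, the last in the library that stood apart. All 4 of these were below the BMDM-WT libraries, and the genotype difference at 18 h was -0.44 on the log2 scale (SE 0.14, adjusted p = 0.0204). Without that library the difference was -0.26, with an adjusted p of 0.0976, and with the 5 h library left out as well the adjusted p was 0.0446. The call was also lost without replicate 1 of BMDM-WT (adjusted p = 0.0612) and with only the libraries compared (adjusted p = 0.139). The lower macrophage marker sum of BMDM-Nur77-KO at 18 h moves with this result, and its part in it was not tested.

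Cebpb in BMDM-WT rose 4.79-fold within 1 h (log2 2.26, SE 0.12, adjusted p = 1.22e-15). Its libraries were at 22.8, 27.2, 23.5 and 28.5 CPM at 0 h and at 123, 143, 114 and 109 CPM at 1 h. They then stayed in the same range, at 132, 137, 137 and 121 CPM at 5 h and 126, 125, 104 and 134 CPM at 18 h, and neither of the later steps passed the test (adjusted p = 0.432 and 0.415). In BMDM-Nur77-KO, Cebpb was at 21.4, 21.3, 19.3 and 22.4 CPM at 0 h, 134, 99.4, 89.9 and 103 CPM at 1 h and 123, 124, 101 and 105 CPM at 5 h. At 18 h it was at 137, 143, 178 and 188 CPM. The BMDM-Nur77-KO libraries were all below those of BMDM-WT at 0 h (log2 -0.28, adjusted p = 0.154) and all above them at 18 h. The difference at 18 h was 0.40 (SE 0.12, adjusted p = 0.0112), and without replicate 4 of BMDM-Nur77-KO it was 0.32, with an adjusted p of 0.0601 (0.0358 with the 5 h library left out as well). With only the libraries compared, this call was lost (adjusted p = 0.0597). The rise from 0 to 18 h was 7.66-fold in BMDM-Nur77-KO and 4.79-fold in BMDM-WT, and this difference in response was called (log2 0.68, SE 0.17, adjusted p = 0.00786).

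Per length, BMDM-WT at 0 h had more Cebpa than Cebpb. The ratio of Cebpb to Cebpa, in CPM per kilobase of transcript, was 0.536 ± 0.0678 (SD, n = 4) at 0 h, 3.92 ± 0.188 (SD, n = 4) at 1 h, 72.7 ± 13.4 (SD, n = 4) at 5 h and 5.54 ± 0.300 (SD, n = 4) at 18 h. In BMDM-Nur77-KO it was 0.417 ± 0.0143 (SD, n = 4), 2.69 ± 0.335 (SD, n = 4), 70.2 ± 24.2 (SD, n = 4) and 11.0 ± 5.36 (SD, n = 4). The BMDM-Nur77-KO libraries were all below those of BMDM-WT at 0 and 1 h, overlapped with them at 5 h, and were all above them at 18 h. There the ratio was 7.24 to 9.76 in 3 BMDM-Nur77-KO libraries and 18.8 in the one that stood apart, and 5.22 to 5.92 in BMDM-WT.

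**Figure D4:**
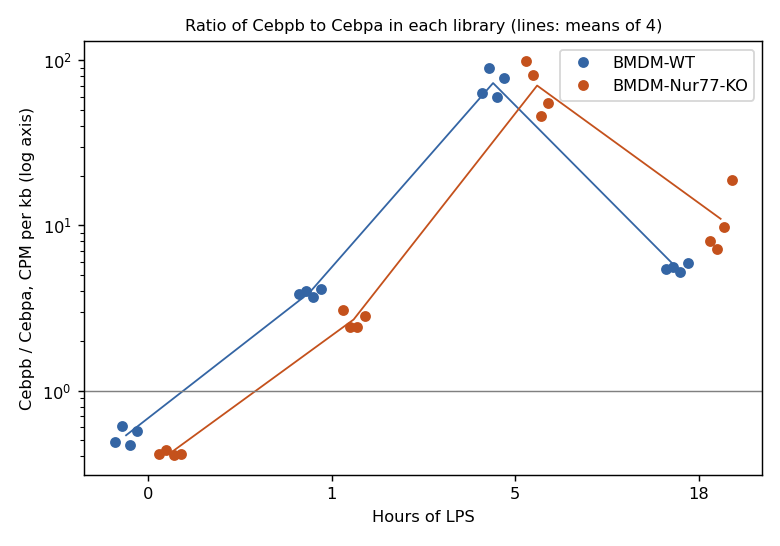
Ratio of Cebpb to Cebpa in CPM per kilobase of transcript (log axis) against hours of LPS, with 1 point per library (blue BMDM-WT, orange BMDM-Nur77-KO), lines through the means of 4 and a grey line at equal levels. The ratio passes 1 by 1 h in all libraries, is highest at 5 h, and at 18 h is 5.22 to 5.92 in BMDM-WT and 7.24 to 18.8 in BMDM-Nur77-KO.

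Cebpd, which encodes the third C/EBP factor, was the least abundant member per length in BMDM-WT at 0 h, with a mean of 1.53 CPM per kilobase, but at 5 h it had 10.3 CPM per kilobase and Cebpa 1.24. It was highest at 5 h. In BMDM-WT its libraries were at 3.37, 4.59, 2.96 and 2.91 CPM at 0 h, 3.70, 5.57, 4.70 and 4.39 CPM at 1 h, 22.7, 21.9, 22.3 and 25.9 CPM at 5 h and 7.68, 5.90, 5.91 and 6.04 CPM at 18 h. The rise to 5 h was 6.60-fold (log2 2.72, SE 0.15, adjusted p = 1.23e-16). In BMDM-Nur77-KO, Cebpd was at 2.74, 3.68, 3.69 and 3.19 CPM at 0 h, 5.66, 4.22, 3.93 and 4.37 CPM at 1 h, 19.4, 19.3, 20.1 and 20.2 CPM at 5 h and 5.10, 5.16, 6.64 and 4.24 CPM at 18 h. At 5 h all 4 of these were below BMDM-WT, but the difference did not pass the test (log2 -0.23, SE 0.13, adjusted p = 0.178), nor did that at 18 h (log2 -0.26, adjusted p = 0.235). The gene overlaps with Spidr over 322 bases, and reads there may have been counted for either.

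Spi1, the gene of PU.1, was the most abundant member per length at 0 h, with 97.7 ± 6.67 CPM per kilobase (SD, n = 4) in BMDM-WT. Its libraries in BMDM-WT were at 179, 199.5, 207 and 209 CPM at 0 h and at 185, 199.6, 182 and 182 CPM at 1 h. At 5 h they were at 386, 395, 407 and 363 CPM and at 18 h at 308, 322, 252 and 307 CPM, so that the groups at 0 and 1 h overlapped and those at 5 and 18 h lay above both. Spi1 rose 1.95-fold by 5 h (adjusted p = 3.5e-11) and was 1.49-fold above 0 h at 18 h (adjusted p = 8.86e-07). In BMDM-Nur77-KO it was at 176, 184, 184 and 212 CPM at 0 h, 234, 204, 210.2 and 202 CPM at 1 h, 265, 345, 358 and 352 CPM at 5 h and 319, 330.4, 357 and 310.1 CPM at 18 h. All 4 were above BMDM-WT at 1 h and all 4 were below it at 5 h. The difference of 0.19 at 1 h did not pass the test (adjusted p = 0.265) but was called with only the libraries compared (adjusted p = 0.0434). The difference of -0.23 at 5 h (SE 0.09, adjusted p = 0.0497) was called by a small margin. The lowest value, 265 CPM, belongs to the library that stood apart, without which the difference was -0.14 and the adjusted p 0.265. The call was also lost without replicate 2 of BMDM-Nur77-KO or any of replicates 1, 2 and 3 of BMDM-WT, with adjusted p of 0.0636 to 0.121. It did not hold in edgeR with DESeq2's size factors, without a filter, with a replicate block or with transcripts summed (adjusted p = 0.0508 to 0.085). With only the libraries compared, the adjusted p was 0.241.

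Runx1, whose product works with PU.1 and C/EBP proteins at myeloid genes, was lower at 18 h in both genotypes. In BMDM-WT it was at 76.3 to 87.4 CPM at 0 h, 95.1 to 121 CPM at 1 h, 68.2 to 74.8 CPM at 5 h and 44.8 to 58.9 CPM at 18 h. It rose 1.27-fold at 1 h (adjusted p = 0.0191), which did not hold without replicate 4 at 1 h (adjusted p = 0.116) or replicates 3 or 4 at 0 h (adjusted p = 0.0599 and 0.0592), and fell 1.62-fold by 18 h (adjusted p = 1.44e-06). At 5 h its difference from 0 h was -0.16 (adjusted p = 0.191), which became -0.29 with transcripts summed (adjusted p = 0.0201) and -0.44 with the transcript of lowest mean count (adjusted p = 0.000934). In BMDM-Nur77-KO it was at 75.4 to 107 CPM at 0 h, 90.8 to 102 CPM at 1 h, 60.7 to 81.6 CPM at 5 h and 45.9 to 60.1 CPM at 18 h, overlapping with BMDM-WT at each time, and the differences of -0.10 to 0.17 on the log2 scale did not pass the test. The length of its kept transcript, 1985 bases, is far below that of its other transcripts, so that no level per length is given.

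Etv3, an ETS repressor, was the 1 member whose genotype difference was called at each time. It lies on chromosome 3 from 87525577 to 87540158 (GRCm38). The 250 bases before its start are shown together with those of Ets2, which lies on chromosome 16 from 95702407 to 95721049, because these genes carried the largest differences between the genotypes. The sequences are from RefSeq for GRCm38.p6, on the plus strand and from 5′ to 3′, at chr3:87525328-87525577 for Etv3 and chr16:95702157-95702406 for Ets2, with GC boxes (GGGCGG, or CCGCCC on the other strand) in capitals:
Etv3: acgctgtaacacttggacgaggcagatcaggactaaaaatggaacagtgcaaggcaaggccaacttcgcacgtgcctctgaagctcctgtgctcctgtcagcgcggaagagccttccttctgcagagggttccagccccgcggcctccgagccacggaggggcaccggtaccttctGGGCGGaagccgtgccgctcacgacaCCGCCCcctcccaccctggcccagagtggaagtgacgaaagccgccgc
Ets2: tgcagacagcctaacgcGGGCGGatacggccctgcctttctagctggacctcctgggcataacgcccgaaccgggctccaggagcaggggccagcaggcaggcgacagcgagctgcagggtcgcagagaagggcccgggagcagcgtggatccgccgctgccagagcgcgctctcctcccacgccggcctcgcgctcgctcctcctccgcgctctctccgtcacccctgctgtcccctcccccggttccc
Neither window held the 8-base element of the NR4A receptors (AAAGGTCA), which was present in 1.34% of 32851 promoters, an AP-1 element (TGANTCA, 6.75%), a cAMP response element (TGACGTCA, 1.55%), a C/EBP element (TTGCNNAA, 9.56%) or an NF-kB element (GGGNNNTTCC, 4.65%). Both strands were searched. The same held for an ETS element (CCGGAAGT, 2.88%) and a PU.1 element (GAGGAAGT, 2.44%). Among the 8 members in the promoter table, which holds Cebpa, Cebpb, Runx1, Etv3, Etv6, Ets2, Elf1 and Elk3, the only match to these 7 elements was an AP-1 element of Elf1, 23 bases before the start of 1 of its transcripts. A match or its absence describes these letters alone.

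Etv3 in BMDM-WT was at 173, 173, 173 and 172 CPM at 0 h, and LPS raised it 2.87-fold at 1 h, 3.51-fold at 5 h and 2.34-fold at 18 h (adjusted p = 2.11e-16, 4.42e-19 and 6.95e-15). The libraries of BMDM-WT were at 499, 498, 500.4 and 482 CPM at 1 h, 592, 601, 617 and 614 CPM at 5 h and 389.6, 416, 417 and 392 CPM at 18 h. In BMDM-Nur77-KO, Etv3 was at 308, 293, 318 and 307 CPM at 0 h, 776, 853, 801 and 803 CPM at 1 h, 695, 948, 988 and 1016 CPM at 5 h and 704, 736, 715 and 642 CPM at 18 h. Each BMDM-Nur77-KO library was above each BMDM-WT library of the same time. The difference was 0.83 at 0 h (SE 0.08, adjusted p = 3.98e-09), 0.71 at 1 h (SE 0.08, adjusted p = 7.76e-08), 0.59 at 5 h (SE 0.08, adjusted p = 1.64e-06) and 0.79 at 18 h (SE 0.08, adjusted p = 2.34e-09). Without replicate 1 of BMDM-Nur77-KO, the lowest at 695 CPM, it was 0.70 at 5 h. A difference between the genotypes in the fold rise with LPS did not pass the test, with an interaction of -0.12 at 1 h, -0.24 at 5 h and -0.04 at 18 h (SE 0.11 for each, adjusted p = 0.606, 0.268 and 0.916). The level of Etv3 in BMDM-Nur77-KO at 18 h lay above the highest BMDM-WT library at any time, 617 CPM.

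The 11 genes tested within 500 kb of Etv3 were chosen after the values of Etv3 were seen. Of these, 1 was higher and 2 were lower in BMDM-Nur77-KO before LPS, against 6.32% and 6.34% of all genes. Cd5l, which encodes a secreted scavenger protein of macrophages, has its centre 168 kb from that of Etv3. At 0 h its BMDM-WT level was 971 ± 140.3 CPM (SD, n = 4), whereas BMDM-Nur77-KO had 45.2 ± 5.65 CPM (SD, n = 4; log2 -4.43, adjusted p = 2.43e-20), and its difference was between -4.27 and -4.56 at all times. Fcrl1, an Fc receptor-like gene 143 kb from Etv3, was at 3.61 ± 0.436 CPM (SD, n = 4) and 0.954 ± 0.398 CPM (SD, n = 4) in the same order (log2 -1.86, adjusted p = 1.46e-05). Nes was higher at 0 h (log2 0.42, adjusted p = 0.029). Cd5l and Fcrl1 were lower at each time. They were joined by Arhgef11 among the lower genes at 5 and 18 h (log2 -0.47 and -0.34), and Fcrls was higher at 18 h (log2 0.47). Of all genes, 3.05%, 10.7% and 9.93% were lower at 1, 5 and 18 h, and 11.7% were higher at 18 h. Whether the DNA around Etv3 differs between the genotypes was not tested. Of the 4 genes tested within 500 kb of Ets2, Hmgn1 was higher at 0 h (log2 0.27) and Psmg1 lower at 18 h (log2 -0.68). The shares of all genes in these directions were 6.32% and 9.93%.

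**Figure D5:**
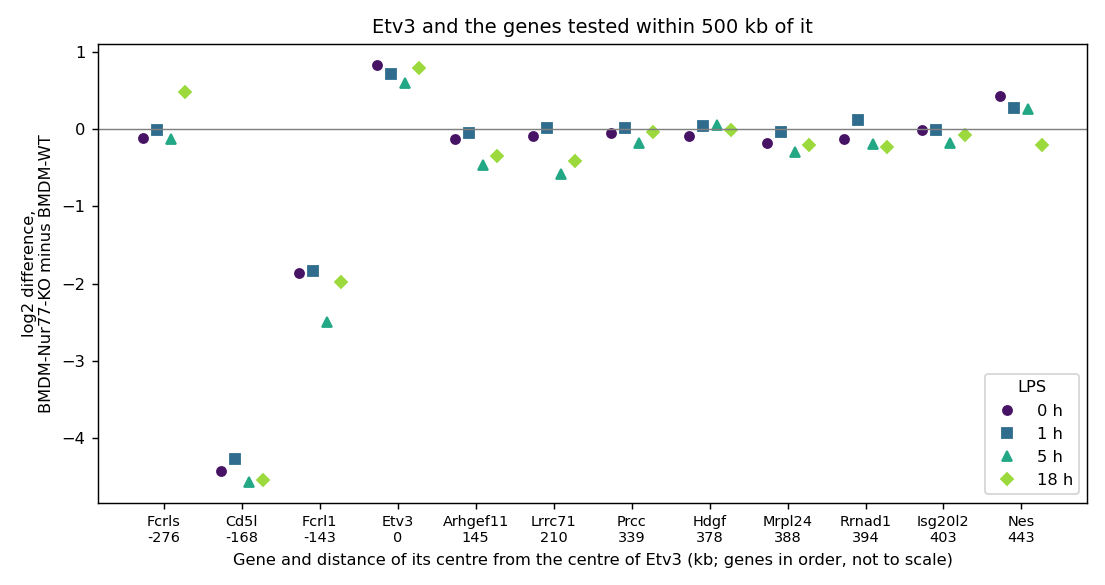
Log2 difference between the genotypes (BMDM-Nur77-KO minus BMDM-WT) at 0, 1, 5 and 18 h of LPS for Etv3 and the 11 genes tested within 500 kb of it, in order along the chromosome and with the distance of their centres in kilobases. Etv3 lies between 0.59 and 0.83, Cd5l between -4.27 and -4.56 and Fcrl1 between -1.84 and -2.50.

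Ets2, an ETS activator downstream of MAP kinase signaling, was the 1 member with genotype differences called in both directions, lower at 5 h and higher at 18 h in BMDM-Nur77-KO. In BMDM-WT its libraries were at 91.6, 93.2, 93.6 and 98.6 CPM at 0 h and at 199, 190.0, 184 and 203 CPM at 1 h. They then fell to 76.7, 80.4, 81.2 and 74.2 CPM at 5 h and 26.2, 25.5, 26.9 and 25.5 CPM at 18 h. This was a rise of 2.06-fold at 1 h (adjusted p = 1.18e-16), followed by a fall of 2.48-fold from 1 to 5 h and of 3.00-fold from 5 to 18 h (adjusted p = 9.26e-20 and 5.88e-21). In BMDM-Nur77-KO, Ets2 was at 97.2, 91.2, 92.3 and 90.2 CPM at 0 h, 182, 176, 175 and 169.5 CPM at 1 h, 46.9, 45.7, 45.8 and 44.5 CPM at 5 h and 39.8, 38.4, 40.6 and 38.1 CPM at 18 h. The genotypes overlapped at 0 h (log2 -0.02, adjusted p = 0.801). At 1 h all BMDM-Nur77-KO libraries were below those of BMDM-WT, with a difference of -0.14 that did not pass the test (adjusted p = 0.101). At 5 h Ets2 was 1.71-fold lower in BMDM-Nur77-KO (log2 -0.77, SE 0.05, adjusted p = 6.19e-12), whereas at 18 h it was 1.51-fold higher (log2 0.59, SE 0.05, adjusted p = 1.32e-09). The groups did not overlap at either time. Ets2 in BMDM-Nur77-KO thus went from a mean of 45.7 to 39.2 CPM between 5 and 18 h, and in BMDM-WT from 78.1 to 26.0 CPM. The interaction was -0.75 at 5 h (SE 0.07, adjusted p = 8.94e-08) and 0.61 at 18 h (SE 0.08, adjusted p = 1.25e-06).

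Etv6, an ETS repressor known for its role in blood cell development, and Elf1, an ETS activator of blood cells, had their highest levels at 5 h. Etv6 in BMDM-WT was at 82.7, 77.4, 92.9 and 90.5 CPM at 0 h, 103, 107, 115 and 108 CPM at 1 h, 360.4, 386, 402 and 363 CPM at 5 h and 107, 112, 119.5 and 108 CPM at 18 h. It rose 4.40-fold by 5 h (log2 2.14, SE 0.07, adjusted p = 6.71e-22) and fell 3.38-fold from 5 to 18 h (adjusted p = 1.72e-19). In BMDM-Nur77-KO it was at 77.4, 82.8, 86.0 and 86.7 CPM at 0 h, 99.6, 98.9, 105 and 96.9 CPM at 1 h, 371, 380.1, 355 and 354 CPM at 5 h and 132, 131, 116 and 146 CPM at 18 h. The genotypes overlapped at each time. The difference of 0.23 at 18 h was called (SE 0.07, adjusted p = 0.0148), but it was 0.18, with an adjusted p of 0.0859, without replicate 4 of BMDM-Nur77-KO, and the call was also lost without replicate 1 of BMDM-WT (adjusted p = 0.0526). It was lost as well with only the libraries compared (adjusted p = 0.126) and without the 2 libraries that stood apart (adjusted p = 0.0556).

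Elf1 in BMDM-WT was at 111, 112, 121 and 111 CPM at 0 h, 127, 125, 126 and 128 CPM at 1 h, 281, 269, 292 and 279.6 CPM at 5 h and 131, 136, 143 and 119.9 CPM at 18 h. The rise to 5 h was 2.46-fold (log2 1.30, SE 0.10, adjusted p = 7.49e-13). In BMDM-Nur77-KO, Elf1 was at 123, 117, 119.8 and 116 CPM at 0 h, 116, 119.6, 122 and 123 CPM at 1 h, 458, 337, 298 and 273 CPM at 5 h and 135, 142, 137 and 170.1 CPM at 18 h. The highest values at 5 and 18 h were those of the libraries that stood apart, and the genotypes overlapped at 5 h. The difference of 0.28 at 5 h (SE 0.10, adjusted p = 0.036) was 0.11, with an adjusted p of 0.358, without replicate 1 of BMDM-Nur77-KO. The call was also lost without replicate 2 of BMDM-Nur77-KO or any 1 of the BMDM-WT replicates, with adjusted p of 0.0511 to 0.09. It did not hold without a filter, with a replicate block or with only the libraries compared (adjusted p = 0.0589, 0.0509 and 0.283). The rise of Elf1 from 0 to 18 h in BMDM-Nur77-KO (adjusted p = 0.00949) was lost without replicate 4 at 18 h (adjusted p = 0.0619). Elf1 overlaps with Wbp4 over 95 bases and with the pseudogene Gm9243.

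Elk3 fell 1.29-fold by 5 h in BMDM-WT (adjusted p = 0.000348) and was called lower in BMDM-Nur77-KO at 0 and 18 h with edgeR. In BMDM-WT it was at 54.3, 60.3, 58.9 and 52.3 CPM at 0 h, 66.5, 69.8, 58.1 and 66.3 CPM at 1 h, 43.6, 47.5, 47.8 and 36.5 CPM at 5 h and 53.2, 45.7, 59.2 and 49.8 CPM at 18 h. In BMDM-Nur77-KO it was at 45.5, 48.9, 45.8 and 49.6 CPM at 0 h, 55.8, 52.5, 54.3 and 55.0 CPM at 1 h, 43.0, 39.5, 37.6 and 36.4 CPM at 5 h and 41.9, 37.7, 43.6 and 41.7 CPM at 18 h. The groups did not overlap at 0, 1 and 18 h. The difference was -0.25 at 0 h (SE 0.08, adjusted p = 0.0451), -0.26 at 1 h (SE 0.08, adjusted p = 0.0564), -0.17 at 5 h (SE 0.09, adjusted p = 0.152) and -0.33 at 18 h (SE 0.08, adjusted p = 0.00393). The difference at 1 h was called with DESeq2 (adjusted p = 0.0187) and with only the libraries compared (adjusted p = 0.0108). It was also called without the 2 libraries that stood apart (adjusted p = 0.0234). The call at 0 h did not hold when any of 6 single libraries was left out, replicates 1, 2 and 3 of each genotype, with adjusted p up to 0.133. In edgeR this call was also lost with DESeq2's size factors, without a filter and with a replicate block (adjusted p = 0.0592 to 0.0804). It was lost as well with transcripts summed and with the transcript of lowest mean count (adjusted p = 0.0745 and 0.119). The rise from 5 to 18 h in BMDM-WT was lost without replicate 4 at 5 h (adjusted p = 0.0813) or replicate 3 at 18 h (adjusted p = 0.0731), and the fall from 0 to 18 h in BMDM-Nur77-KO without replicates 2 or 4 at 0 h or replicate 2 at 18 h (adjusted p = 0.0757, 0.0839 and 0.115). Elk3 overlaps with Cdk17 over 3680 bases, and its other transcripts had 68.4% to 88.0% of the counts of the one kept.

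Other genes of the families were examined as a list of 29 (4 C/EBP genes and partners, 3 RUNX genes and 22 ETS genes), 18 of which were tested. In BMDM-Nur77-KO, the numbers called at 0, 1, 5 and 18 h were 2, 1, 7 and 4, all of them higher except for Elf4 at 5 h. Of all genes, 6.32%, 3.48%, 13.7% and 11.7% were higher and 6.34%, 3.05%, 10.7% and 9.93% lower at these times. The list had medians of 0.11, 0.03, 0.31 and 0.15 on the log2 scale. With the 2 libraries that stood apart left out, these were 0.11, 0.03, 0.20 and 0.03. Without the 2 libraries that stood apart, 4, 2, 7 and 5 were called, of which Gabpb1 at 1 h, Elf4 at 5 h and Fli1 at 18 h were lower. The shares of all genes above are for all libraries, so they do not serve as the background of these counts. Ddit3, which encodes the C/EBP partner CHOP, was higher at 1, 5 and 18 h, by 0.56, 0.88 and 0.45 (adjusted p = 0.00129, 7.63e-06 and 0.00115). Cebpz was higher at 5 h (log2 0.55). Runx2 was higher at 0, 5 and 18 h, by 1.01, 0.72 and 0.77 (adjusted p = 7.71e-06, 0.026 and 0.000125), and its call at 5 h was lost without the 2 libraries (adjusted p = 0.0581). Spic, which encodes a PU.1-related factor of iron-recycling macrophages, was higher at 18 h, where BMDM-WT had 34.5 ± 2.63 CPM (SD, n = 4) and BMDM-Nur77-KO had 95.8 ± 11.5 CPM (SD, n = 4; log2 1.47, SE 0.16, adjusted p = 1.44e-08). Elf4 had differences of opposite sign at 5 h (log2 -0.33, adjusted p = 0.00214) and 18 h (log2 0.26, adjusted p = 0.00924). Ets1 was higher at 0 h (log2 0.63), and Elf2, Erf and Gabpb1 were higher at 5 h (log2 0.26, 0.52 and 0.61). Of these genes, the interaction was called for Ddit3 (log2 0.68), Erf (log2 0.62) and Elf4 (log2 -0.38) at 5 h and for Spic (log2 0.90) at 18 h. It was called for 3.11% of all genes at 5 h and 9.43% at 18 h. Without the 2 libraries that stood apart, calls were gained for Runx2 at 1 h (log2 -0.88) and for Fli1 and Elf4 at 18 h (log2 -0.55 and 0.24).

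Textbook target genes of these factors were counted in the same way. Of 10 genes of the myeloid lineage that are known targets of PU.1 and C/EBPα, all tested, 2 differed between the genotypes at 0 h, 2 at 1 h and 4 at 5 h. Of all genes, 6.32%, 3.48% and 13.7% were higher and 6.34%, 3.05% and 10.7% lower at these times. Itgb2 was higher at 0 and 1 h (log2 0.40 and 0.45) and Csf2ra at 5 h (log2 0.70), whereas Fcgr1 was lower at each time, joined by Csf3r and Cd14 at 5 h (log2 -0.72 and -0.72). At 18 h, 3 genes were called, all lower: Csf1r, the M-CSF receptor (log2 -0.63, adjusted p = 0.000847), Itgam, an integrin chain (log2 -0.65, adjusted p = 1.27e-09), and Fcgr1, an Fc receptor (log2 -0.30, adjusted p = 0.0149), which are also macrophage markers, against 9.93% of all genes lower. The list median at 18 h was -0.23 (-0.14 without the 2 libraries that stood apart), and that of all genes -0.01. Of 10 known targets of C/EBPβ and C/EBPδ, 9 were tested. In BMDM-WT, LPS raised 6 of them at 1 h, 8 at 5 h and 8 at 18 h, against 10.1%, 30.1% and 32.4% of all genes. This list was chosen with earlier results of these data known. The part of C/EBPβ and C/EBPδ in these rises was not tested. In BMDM-Nur77-KO, Il1b and Saa3 were lower at 0 h (log2 -0.68 and -0.60). At 1 h, 1 was higher (Nos2) and 4 lower, at 5 h 1 (Il6) and 3, and at 18 h 5 and 1, where 11.7% of all genes were higher and 9.93% lower. Nos2 at 1 h was near the floor, with 0.096 ± 0.0344 CPM (SD, n = 4) in BMDM-WT. In BMDM-Nur77-KO it was at 0.458 ± 0.557 CPM (SD, n = 4), with an SD above the mean. The 5 higher genes at 18 h were Il6 (log2 3.66), Ptgs2 (log2 2.95), Il12b (log2 1.55), Nos2 (log2 1.52) and Il1b (log2 1.30), with adjusted p of 2.22e-11, 1.85e-13, 1.74e-12, 2.23e-09 and 1.12e-08, and Saa3 was lower (log2 -0.43, adjusted p = 0.00214). The count at 18 h was also 5 and 1 without the 2 libraries that stood apart. Without these libraries, the myeloid list had 1, 2 and 2 higher genes at 0, 1 and 5 h, and 4, 2, 3 and 3 lower genes at 0, 1, 5 and 18 h. Shares of all genes are given here only for all libraries.

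The genes whose pattern over the 8 group means of log2 CPM was most like that of each member were named from Pearson's r, as a description over 8 groups that share their libraries. For Ets2 they were Dusp5 (r = 0.98) and Dusp4 (r = 0.98), for Cebpa Sec22c (r = 0.997) and Neil2 (r = 0.996), for Cebpb Gadd45b and Rab20 (r = 0.98 for each) and for Cebpd A730081D07Rik (r = 0.997) and Cr1l (r = 0.991). For Spi1 they were Map2k1 and Sik3 (r = 0.99 for each), for Runx1 Vps13b and Cip2a (r = 0.99 for each), for Etv6 Epha1 (r = 0.997) and Gcnt2 (r = 0.996), for Elf1 Tpm3 and Tab2 (r = 0.998 for each) and for Elk3 Fam110a (r = 0.97) and Eya1 (r = 0.97). Etv3 had the lowest best match, with Tcf7l2 (r = 0.95) and Lilr4b (r = 0.94).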

How the data were processed

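The authors aligned paired-end reads of strand-specific mRNA libraries to mm10 with HISAT2 2.1.0, dropped alignments of low mapping quality (SAMtools) and used HOMER to count tags per RefSeq transcript, without normalization. Whether strand was used in counting is not given in the sources used here. The submitters' processing notes also name CASAVA 1.8.2. The values deposited by the authors are expected counts: each mate of a pair adds a part of a tag, and 28.6% of values are not whole. Of 42361 transcripts, 93 could not be named, and these held 0.233% to 1.37% of the tags of a library and were left out. The transcript with the highest mean was kept per gene, and counts were rounded.

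Counts were scaled with TMM and tested with edgeR 4.0.16 (quasi-likelihood, R 4.3.3, limma 3.58.1) in 1 model with a mean for each of 8 groups, for the 11207 genes whose mean RPKM passed 1 in any group. p-values were adjusted with the Benjamini-Hochberg method, and called means an adjusted p under 0.05. CPM were computed with the TMM-scaled library size, and fold changes are those of the model. The test was checked on simulated data. DESeq2 1.42.0 and other settings served as alternatives. Transcript lengths came from GENCODE, capped at the gene span, and promoters from RefSeq (GRCm38.p6), with a window of 250 bases before the start.

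The members and gene lists were chosen with earlier results of these data known. All 10 members were named whatever their test gave. A member was described with the value of each library where a genotype difference was called, or where its LPS response in BMDM-WT was called with a log2 fold change past 1, and otherwise by its range. Other family and target genes were named where called between the genotypes, and the 2 genes most alike by Pearson's r over 8 group means. Markers of macrophages, neutrophils, B cells, T cells, dendritic cells, fibroblasts, erythroid cells and mast cells were summed. Distances of libraries are from the mean of the others of their group. The alternative transcript and the removal of the 2 libraries that stood apart were chosen after seeing the data, as were the core promoter elements and the neighbours of Etv3 and Ets2.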

Additional observations from a re-analysis of the deposited data

Results flagged for a closer look

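The response of Ets2 to LPS differed between the genotypes by a test of the interaction, by -0.75 on the log2 scale at 5 h (adjusted p = 8.94e-08) and by 0.61 at 18 h (adjusted p = 1.25e-06). That of Cebpb differed by 0.68 at 18 h (adjusted p = 0.00786).

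In 5 of 80 member groups of 4 libraries, 1 library lay far from the other 3, where chance flags about 1 in 20 groups. These were the highest value of Cebpd in BMDM-WT at 18 h (7.68 CPM), of Spi1 in BMDM-WT at 1 h (199.6 CPM) and of Elf1 in BMDM-WT at 0 h (121 CPM), and the lowest value of Etv3 in BMDM-WT at 1 h (482 CPM) and of Spi1 in BMDM-Nur77-KO at 5 h (265 CPM). The last belongs to the library that stood apart over all genes.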

How the results depend on the processing

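The direction of the Etv3 difference at all times and of the Ets2 difference at 5 and 18 h, and their calls, held under all alternatives run. The counts of members called between the genotypes depended on calls near the threshold. The share of all genes called under each other setting is not given here, so these counts have no background beside them. At 0 h, the count of 2 became 1 with DESeq2's size factors, without a filter, with transcripts summed, with the transcript of lowest mean count, with a replicate block and with a limit of 0.58 on the log2 fold change. At 1 h, the count of 1 became 3 with DESeq2, 4 with only the libraries compared and 4 without the 2 libraries that stood apart. At 5 h, the count of 4 became 2 without a filter, with only the libraries compared, with a replicate block, without these 2 libraries and with the fold limit. At 18 h, the count of 6 became 3 with only the libraries compared and 2 with the fold limit. With LPS, 1 member more was lower in BMDM-WT at 5 h (Runx1) with transcripts summed or the transcript of lowest mean count, and 2 fewer in BMDM-Nur77-KO at 5 h with only the libraries compared. The interaction at 18 h went from 2 members to 4 with DESeq2. With a limit of 1 on the log2 fold change for LPS, the counts were 3 at 1 h and 4 at 18 h in BMDM-WT, 2 at 1 h and 4 at 18 h in BMDM-Nur77-KO, and 5 from 5 to 18 h in BMDM-WT.

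With single libraries left out, the counts between the genotypes were 1 to 2 at 0 h, 1 to 2 at 1 h, 2 to 4 at 5 h and 3 to 6 at 18 h. The cause of these changes was not tested. Same-numbered deviations from the group means correlated between -0.465 and 0.422. Libraries of different numbers were not compared, so whether the replicate numbers pair the libraries was not settled. With the replicate block, no count of members changed other than those at 0 and 5 h between the genotypes. The difference of Ets2 at 0 h, which is near 0, changed sign to 0.00053 with DESeq2, 0.0022 with its size factors and 0.00042 with only the libraries compared. Without the 2 libraries, Runx1 at 18 h became -0.044, the Elf1 interaction at 18 h -0.0031 and the Etv3 interaction at 18 h 0.0029.

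Other sign changes came from leaving out single libraries, for differences that had not passed the test. The ranges were -0.141 to 0.121 for Cebpd at 0 h, -0.14 to 0.0895 for Cebpd at 1 h, -0.143 to 0.155 for its interaction at 1 h, -0.0516 to 0.163 and -0.00074 to 0.108 for the Cebpb interaction at 1 and 5 h, -0.0622 to 0.0249 for the Elk3 interaction at 1 h, -0.0458 to 0.0417 for the Etv6 interaction at 5 h, -0.144 to 3.4e-05 and -0.045 to 0.134 for Runx1 at 5 and 18 h, -0.00017 to 0.0314 for Elf1 at 1 h against 0 h in BMDM-Nur77-KO, -0.00311 to 0.117 for the Elf1 interaction at 18 h and -0.0615 to 0.00284 for the Etv3 interaction at 18 h. Depth limits Cebpa at 5 h, where a library held 22.5 to 35.5 tags in BMDM-WT.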
